A study of Mus musculus with 12 samples.

Results

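Nuclear receptors are transcription factors that bind lipids, hormones or vitamins and switch genes on or off, and the present account follows 33 genes of this class in primary cultured mouse hepatocytes. The members were fixed by gene symbol, 29 receptors and 4 of the coregulator proteins that receptors recruit, out of 22471 features measured, and all 33 were found, each in 1 row. A further 19 receptors and 21 coregulators outside this set were used for comparison. RNA sequencing was performed in 12 libraries, 3 in each of 4 groups labelled Con, ConOA, BBR and BBROA. By the methods of the study, primary hepatocytes came from young male C57BL/6J mice, and the labels name no genetic change in any group. Con cells received neither agent and ConOA cells received oleic acid (OA), a monounsaturated fatty acid used to induce lipid loading. BBR cells received benzbromarone (BBR), a uricosuric drug, and BBROA cells received both. The labels name the tissue as liver, whereas the series title names primary hepatocytes. The labels number the replicates and do not say whether these were separate mice or separate wells, so p-values measure only the spread between these libraries.

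The 3 peroxisome proliferator-activated receptors, PPARα (gene Ppara), PPARδ (Ppard) and PPARγ (Pparg), bind fatty acids and related drugs, and pair with a retinoid X receptor (RXR) on DNA. PPARα drives fatty acid oxidation in the fasted liver, and PPARγ is best known for fat storage in adipocytes and in fatty liver. RXRs are the shared partners of the retinoic acid receptors (RAR), the thyroid hormone receptors (THR) and the oxysterol receptors (LXR) as well. The messenger level of a receptor does not report its activity, which depends on its ligand.

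Total counts per library ranged from 15485508 to 23668379. Albumin and the other hepatocyte markers together stood between 36349 and 44945 CPM (counts relative to library size) in every library. The summed level of 10 Kupffer cell and macrophage markers was between 101 and 183 CPM and that of 10 endothelial markers was between 78.5 and 96.1 CPM. The 10 stellate cell and fibroblast markers summed to between 23.3 and 29.1 CPM. The 10 cholangiocyte markers summed to between 799 and 1460 CPM, most of it from Cldn4 and Spp1. Only Krt7 and Cftr of these 10 were at 0 in every Con library, and none of the 10 was at 0 in every ConOA or every BBROA library. In such bulk samples, fewer cells of a type and less RNA per cell cannot be told apart.

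Levels of different genes were compared per length, as the FPKM values (corrected for transcript length as well as depth) that the authors deposited. In Con, the most abundant members were the orphan receptor Nr2f6 at 47.6 ± 2.15 FPKM, the corepressor Ncor1 at 47.00 ± 1.63 FPKM and LXRβ (Nr1h2) at 44.7 ± 0.704 FPKM (SD, n = 3). The ranges of Nr2f6 and Ncor1 overlapped, and Nr1h2 lay below both. The level of Nr2f6 may include reads of Ocel1, a gene on the opposite strand that shares 54.4% of its exonic bases. LXRα (Nr1h3) at 26.2 ± 0.788 FPKM and Rxra at 22.9 ± 0.576 FPKM followed, each apart from its neighbours. Rxrb at 20.3 ± 1.395, Esrra at 20.2 ± 1.73 and the glucocorticoid receptor Nr3c1 at 19.2 ± 0.679 FPKM could not be ordered, because the ranges of neighbours overlapped. In all, 10 members had a mean of at least 10 FPKM in Con and 7 had a mean below 1 FPKM, and 18 of the 32 neighbouring pairs in this order overlapped.

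The PPARs lay in the middle of this order. Ppard at 7.94 ± 0.643 FPKM was the highest of the 3 in Con, Pparg followed at 6.703 ± 0.458 FPKM, and Ppara was the lowest at 1.82 ± 0.0945 FPKM, rank 23 of 33. No library of 1 PPAR reached the range of another in Con. The ratio of Pparg to Ppara on the FPKM scale was between 3.36 and 3.95 in the Con libraries and between 2.56 and 4.24 in the BBR libraries. With OA it was between 1.34 and 1.35, and with BBR and OA between 0.957 and 1.77. Every library with OA therefore had a lower ratio than every library without it, and in BBROA replicate 1 Ppara (3.27 FPKM) exceeded Pparg (3.13 FPKM).

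**Figure D1:**
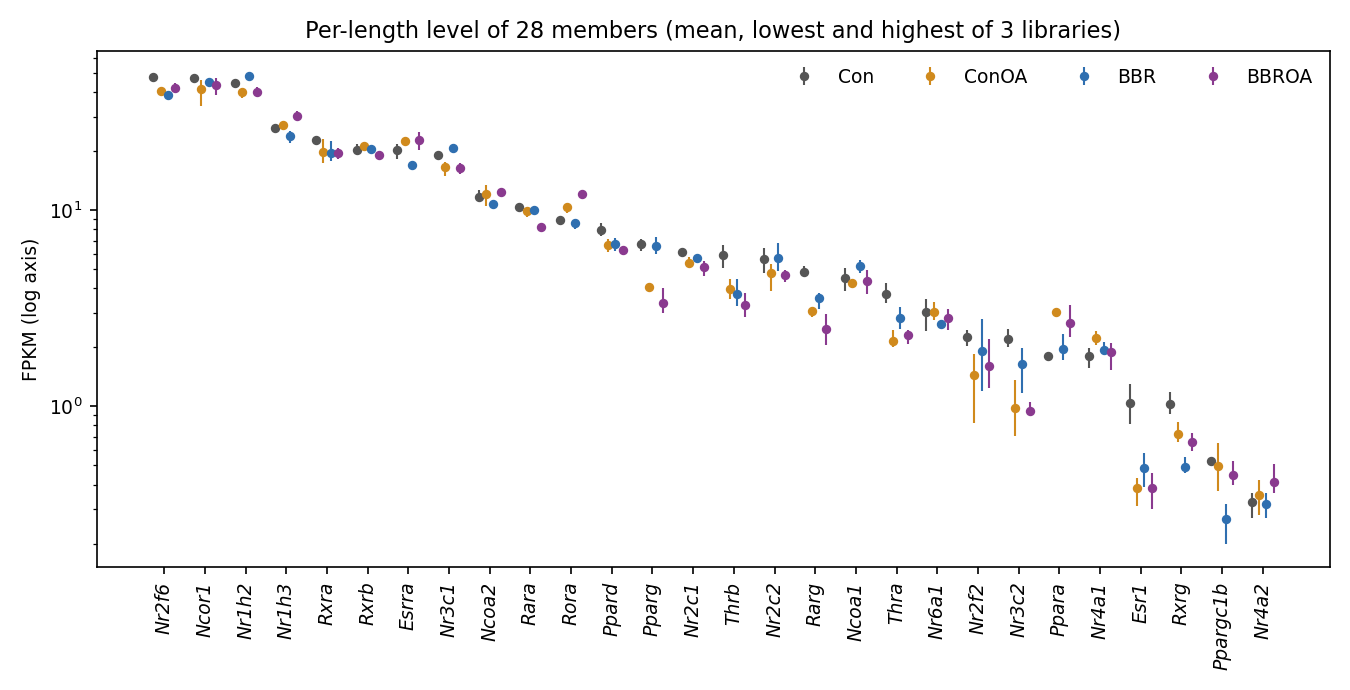
Per-length level of the 28 members that could be tested, ordered by their mean in Con, on a log axis in FPKM. Points are group means and lines run from the lowest to the highest of 3 libraries, and Nr2f6, Ncor1 and Nr1h2 lead in all 4 groups. Values of Nr2f6 may include reads of the overlapping gene Ocel1.

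Among the genes with enough counts, 28 members could be tested in each comparison with edgeR, and a member was called at an adjusted p-value under 0.05. In BBR against Con, 0 of 28 members were called higher (background 13.2% of all genes tested) and 9 were called lower (background 14.5%). At an unadjusted p-value under 0.05 in edgeR 1 was higher, and DESeq2 also called 0 higher. The background shares, here and below, are those of the edgeR fits used for the calls, and counts at other settings have none. In BBROA against ConOA, the same drug comparison under lipid loading, 1 member was called higher (background 1.95%) and 2 were called lower (background 2.63%). In ConOA against Con, 3 were called higher (background 21.3%) and 12 lower (background 21.5%). In BBROA against BBR, 7 were called higher (background 20.1%) and 7 lower (background 18.8%), a split that became 4 higher and 9 lower with upper quartile scaling and 4 higher and 7 lower in DESeq2.

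The median log2 fold change of the 28 members was -0.070 in BBR against Con, -0.045 in BBROA against ConOA, -0.18 in ConOA against Con and -0.10 in BBROA against BBR. Over all genes tested, these medians lay between -0.0061 and -0.00031. Altogether 21 of the 28 members were called in at least 1 of the 4 comparisons or in the interaction of the treatments (background 61.9% of the genes tested in all), 7 were never called, and 5 could not be tested. The comparison of BBR with Con shares no library with that of BBROA with ConOA, and Thrb was the 1 member of 28 called in both, lower each time (background 2.18% called in both in the same direction). ConOA against Con likewise shares no library with BBROA against BBR, and 8 members of 28 were called in the same direction in both (Ppara, Rora and Esrra higher, Pparg, Rarg, Nr2c2, Nr3c1 and Nr3c2 lower), close to the background of 24.2%. Nr2f6 was called in opposite directions (background 1.31%).

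**Figure D2:**
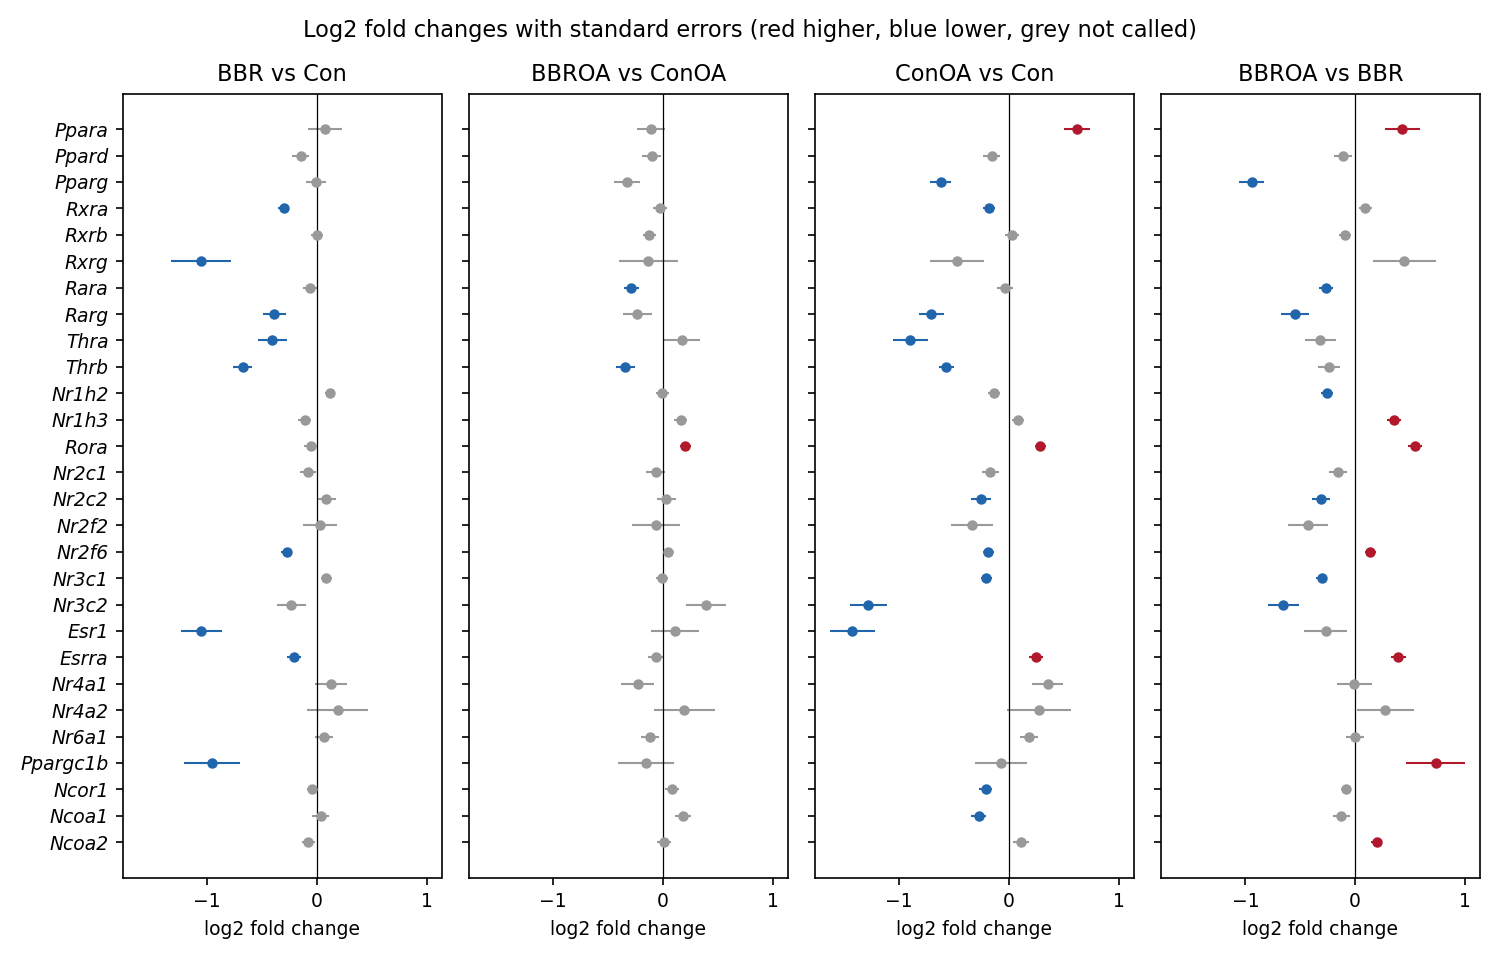
Log2 fold change (x axis) of each tested member (y axis) in the 4 comparisons, with its standard error. Members called higher are red, members called lower are blue and the others are grey, and BBR against Con holds 0 red and 9 blue points.

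Pparg fell with OA, both without and with the drug. It stood at 12.7, 13.6 and 12.05 CPM in Con, 7.92, 8.12 and 8.73 CPM in ConOA, 11.6, 13.97 and 12.6 CPM in BBR and 6.28, 7.35 and 6.14 CPM in BBROA. Every library with OA was below every library without it. The fall was 1.54-fold in ConOA against Con (log2 fold change -0.62 with an SE of 0.0961, adjusted p = 1.29e-04) and 1.92-fold in BBROA against BBR (log2 fold change -0.94 with an SE of 0.114, adjusted p = 1.53e-05). BBR alone left Pparg at nearly the same mean (log2 fold change -0.0082 with an SE of 0.0937, adjusted p = 0.9596). In OA-loaded cells the BBROA libraries were all below the ConOA libraries, but the difference did not pass the threshold (log2 fold change -0.33 with an SE of 0.118, adjusted p = 0.136), and neither did the interaction (log2 fold change -0.31 with an SE of 0.144, adjusted p = 0.183).

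Ppara rose with OA. It stood at 4.77, 4.87 and 5.64 CPM in Con, 7.92, 7.63 and 7.87 CPM in ConOA, 6.49, 4.701 and 4.74 CPM in BBR and 8.25, 6.13 and 7.33 CPM in BBROA. The ConOA libraries were all above the Con libraries, a rise of 1.53-fold (log2 fold change 0.62 with an SE of 0.1205, adjusted p = 8.71e-04). In BBROA against BBR the rise was 1.35-fold (log2 fold change 0.43 with an SE of 0.159, adjusted p = 0.0447), but BBR replicate 1 at 6.49 CPM was above BBROA replicate 2 at 6.13 CPM, so the groups overlapped. This second call was lost without BBR replicate 2 or 3 (adjusted p = 0.135 and 0.153), without BBROA replicate 1 or 3 (adjusted p = 0.175 and 0.1001), with upper quartile scaling (adjusted p = 0.0672) and in DESeq2 (adjusted p = 0.06398). BBR was not found to change Ppara, either without OA (log2 fold change 0.078 with an SE of 0.155, adjusted p = 0.752) or with it (log2 fold change -0.11 with an SE of 0.126, adjusted p = 0.695). Leaving out BBR replicate 1 turned the first of these values to -0.10.

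Ppard, the PPAR with the broadest tissue range, was not called in any comparison. It stood at 22.9, 24.7 and 24.4 CPM in Con, 23.1, 19.9 and 21.2 CPM in ConOA, 19.9, 23.3 and 21.7 CPM in BBR and 20.04, 21.6 and 18.2 CPM in BBROA. The groups overlapped in every comparison, and log2 fold changes ran from -0.16 in ConOA against Con (adjusted p = 0.103) to -0.10 in BBROA against ConOA (adjusted p = 0.554). With upper quartile scaling the value in ConOA against Con passed the threshold at -0.20 (adjusted p = 0.0395). With a replicate block in edgeR it also passed, at -0.16 (adjusted p = 0.0497).

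**Figure D3:**
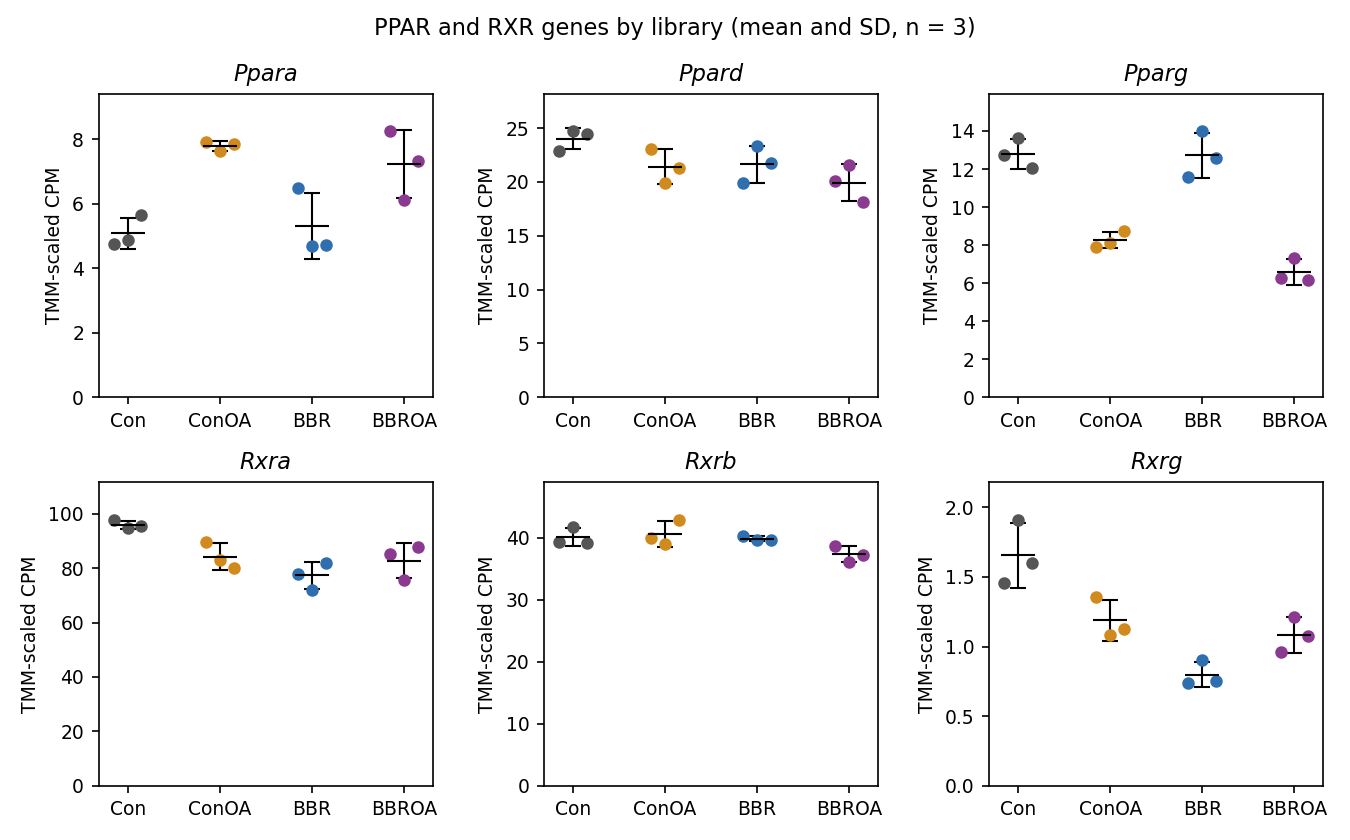
TMM-scaled CPM (y axis) of the 3 PPAR and 3 RXR genes in each of the 12 libraries by group (x axis). Points are libraries and bars are the mean and SD of 3, and the Pparg points with OA lie between 6.14 and 8.73 CPM, below all points without OA.

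The start-site windows of Ppara and Pparg are shown because these were the PPAR genes called in opposite directions with OA. Coordinates are those of the mouse build GRCm38, on which the submitters' notes name mm10, and the windows are RefSeq's (GRCm38.p6), each running from 250 bases before a transcription start to 50 bases after it, on the plus strand and written 5′ to 3′. Ppara (ENSMUSG00000022383, protein-coding) spans chromosome 15 from 85734983 to 85802819, Ppard (ENSMUSG00000002250, protein-coding) chromosome 17 from 28232700 to 28301474, and Pparg (ENSMUSG00000000440, protein-coding) chromosome 6 from 115360951 to 115490399, all on the plus strand. Capitals mark AGGTCA, the core hexamer that most nuclear receptors read, and TGACG, the core of a cyclic AMP response element, searched on both strands. Pparg has 3 windows and Ppara has 1.
Ppara chr15:85735526-85735825: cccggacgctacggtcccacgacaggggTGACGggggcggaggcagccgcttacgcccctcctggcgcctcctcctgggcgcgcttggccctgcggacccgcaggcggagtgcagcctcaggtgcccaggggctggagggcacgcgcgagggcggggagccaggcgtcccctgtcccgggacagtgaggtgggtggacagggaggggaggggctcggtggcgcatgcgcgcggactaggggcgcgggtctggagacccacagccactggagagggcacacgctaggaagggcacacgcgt
Pparg chr6:115360894-115361193: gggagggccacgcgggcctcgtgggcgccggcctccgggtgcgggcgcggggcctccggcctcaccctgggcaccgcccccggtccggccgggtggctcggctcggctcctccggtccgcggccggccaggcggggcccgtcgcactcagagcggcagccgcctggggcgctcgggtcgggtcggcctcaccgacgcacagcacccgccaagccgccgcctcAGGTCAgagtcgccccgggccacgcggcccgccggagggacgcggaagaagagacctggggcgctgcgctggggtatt
Pparg chr6:115362099-115362398: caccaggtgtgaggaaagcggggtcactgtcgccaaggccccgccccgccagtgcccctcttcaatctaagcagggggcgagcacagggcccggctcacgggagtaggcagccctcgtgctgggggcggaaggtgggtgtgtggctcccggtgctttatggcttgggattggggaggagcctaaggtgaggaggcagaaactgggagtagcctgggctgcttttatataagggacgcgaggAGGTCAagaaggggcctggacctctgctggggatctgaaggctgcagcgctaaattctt
Pparg chr6:115421816-115422115: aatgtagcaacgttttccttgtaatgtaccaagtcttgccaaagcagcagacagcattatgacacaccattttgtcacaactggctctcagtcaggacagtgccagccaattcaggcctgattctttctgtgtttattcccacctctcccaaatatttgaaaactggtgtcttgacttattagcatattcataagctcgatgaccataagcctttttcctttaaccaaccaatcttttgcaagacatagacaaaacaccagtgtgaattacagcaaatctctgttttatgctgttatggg

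The first and second Pparg windows each held 1 AGGTCA, beginning 28 and 9 bases before the start, and the third held none. The Ppara window held 1 TGACG, 222 bases before the start, and no AGGTCA. GC content was 74.7% in the Ppara window and 80.3%, 62.7% and 40.3% in the 3 Pparg windows. The counts are summed over a gene and do not say which Pparg start was used. The windows counted did not cover all genes, and Nr3c1, Ppargc1b, Thra, Hnf4g and Ncoa2 had none among them. For the 46 windows of the other 28 members, the median GC content was 62.7%, against 52.7% over the 32851 windows counted. The median number of CpG dinucleotides was 18 against 7. Shares of all windows below are shares of these 32851. AGGTCA occurred in 8 of the 46 windows, 2 of them of Pparg, against 16.3% of all windows. Repeats spaced by 1 base (AGGTCANAGGTCA), the usual PPAR and RXR element, and by 4 bases (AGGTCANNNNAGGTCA), used by LXR and THR, occurred in 0 of 46, against 0.0396% and 0.0152% of all windows. TGACG occurred in 14 of 46 against 20.8%, with 4 copies in the window of each NR4A gene, and the GC box GGGCGG in 25 of 46 against 35.7%.

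Transcripts of 20 genes known as PPAR targets were read beside their receptors, a pattern that was already known from these data when the list was written. Counts of this list and of the gene and marker lists below are to be read beside the shares of all genes called. These were 13.2% higher and 14.5% lower in BBR against Con, and 1.95% and 2.63% in BBROA against ConOA. They were 21.3% and 21.5% in ConOA against Con, and 20.1% and 18.8% in BBROA against BBR. In BBR against Con 16 of 20 were called higher and 0 lower, with a median of 0.70, and in BBROA against ConOA again 16 higher and 0 lower, with a median of 0.47. At an unadjusted p-value under 0.05 in edgeR 0 were lower in both, and DESeq2 called 15 higher and 0 lower in each. The acyl-CoA thioesterase Acot1 and the pyruvate dehydrogenase kinase Pdk4 rose most with BBR alone (log2 fold changes 3.53 and 3.52). None of the 3 PPAR genes was called higher with BBR in either comparison. With OA the list was mixed. In ConOA against Con 7 rose and 4 fell, with the lipid droplet gene Cidec (from 5.38 ± 0.8805 to 10.8 ± 0.373 CPM, log2 fold change 1.01) and the pantetheinase Vnn1 (from 22.95 ± 1.21 to 6.32 ± 0.453 CPM, log2 fold change -1.85) at the ends. In BBROA against BBR 6 rose and 7 fell.

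Among the RXRs, Rxra and Rxrg fell with BBR alone and Rxrb did not pass the threshold in any comparison. Rxra stood at 97.7, 94.9 and 95.4 CPM in Con, 89.7, 82.9 and 80.1 CPM in ConOA, 77.9, 72.1 and 81.9 CPM in BBR and 85.2, 75.5 and 87.6 CPM in BBROA. All BBR libraries and all ConOA libraries were below the lowest Con library. The fall was 1.23-fold with BBR (log2 fold change -0.30 with an SE of 0.0513, adjusted p = 3.25e-04) and 1.13-fold with OA (log2 fold change -0.18 with an SE of 0.05302, adjusted p = 0.0125), the second of which was lost without ConOA replicate 2 (adjusted p = 0.0531). BBR added to OA left it at a similar mean (log2 fold change -0.028 with an SE of 0.0632, adjusted p = 0.854), and the value in BBROA against BBR was 0.095 (adjusted p = 0.244).

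Rxrg, the RXR best known from muscle and brain, was scarce in these cells, with between 14 and 40 counts per library. It stood at 1.46, 1.91 and 1.601 CPM in Con, 1.36, 1.08 and 1.12 CPM in ConOA, 0.736, 0.902 and 0.753 CPM in BBR and 0.962, 1.22 and 1.07 CPM in BBROA. All BBR libraries were below all Con libraries, a fall of 2.08-fold (log2 fold change -1.05 with an SE of 0.2703, adjusted p = 0.00798). The other comparisons of Rxrg did not pass the threshold: -0.13 in BBROA against ConOA (adjusted p = 0.838), -0.47 in ConOA against Con (adjusted p = 0.139) and 0.45 in BBROA against BBR (adjusted p = 0.234). Rxrb stood at 39.3, 41.7 and 39.1 CPM in Con, 40.02, 38.9 and 42.9 CPM in ConOA, 40.3, 39.6 and 39.6 CPM in BBR and 38.7, 36.1 and 37.2 CPM in BBROA, with group means within 1.09-fold of each other. Its log2 fold changes were 0.00012, -0.12, 0.027 and -0.095 in the same order of comparisons as the background shares above (adjusted p from 0.181 to 0.999).

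The RARs respond to retinoic acid, the active form of vitamin A. Rarg fell with each agent alone. It stood at 12.4, 12.6 and 14.4 CPM in Con, 7.92, 7.09 and 8.99 CPM in ConOA, 10.6, 8.63 and 10.6 CPM in BBR and 6.88, 5.92 and 7.75 CPM in BBROA. The Con libraries were above all others. The fall was 1.31-fold with BBR (log2 fold change -0.39 with an SE of 0.104, adjusted p = 0.0105), 1.63-fold with OA (log2 fold change -0.71 with an SE of 0.1098, adjusted p = 1.34e-04) and 1.46-fold with OA in the presence of BBR (log2 fold change -0.55 with an SE of 0.128, adjusted p = 0.00347). The call with BBR was lost without Con replicate 3 (adjusted p = 0.0637) or BBR replicate 2 (adjusted p = 0.0511).

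Rara fell when both agents were present. It stood at 27.5, 27.7 and 29.9 CPM in Con, 28.5, 25.8 and 28.4 CPM in ConOA, 26.8, 26.3 and 28.04 CPM in BBR and 22.5, 22.7 and 22.6 CPM in BBROA. All BBROA libraries lay below the lowest of the other 9. The fall was 1.22-fold against ConOA (log2 fold change -0.29 with an SE of 0.0684, adjusted p = 0.0272) and 1.200-fold against BBR (log2 fold change -0.26 with an SE of 0.0617, adjusted p = 0.00382), and BBR or OA alone gave -0.062 (adjusted p = 0.526) and -0.036 (adjusted p = 0.705). The interaction itself did not pass the threshold (log2 fold change -0.22 with an SE of 0.0886, adjusted p = 0.122). The call against ConOA was lost in 5 of the 6 fits that left out 1 library: without ConOA replicate 1 or 3 (adjusted p = 0.0756 and 0.0586) or BBROA replicate 1, 2 or 3 (adjusted p = 0.0757, 0.09602 and 0.102). Of 12 genes known as RAR targets, 8 could be tested in BBR against Con and ConOA against Con, and 7 in the other 2 comparisons. In each of the 4 comparisons 3 were called lower, among them the retinoic acid hydroxylase Cyp26a1 and the RAR gene Rarb every time. Another target was higher in each comparison with OA as the added agent (Cyp26b1 against Con and Rai14 against BBR). In either comparison with BBR 0 were higher, also at an unadjusted p-value under 0.05 in edgeR and in DESeq2. DESeq2 called 0 higher in BBROA against BBR too, and 2 rather than 3 lower in each comparison with BBR as the added agent. Cyp26a1 fell from 17.7 ± 4.36 to 4.09 ± 1.95 CPM, log2 fold change -2.11 in BBROA against BBR, and the retinaldehyde reductase Dhrs3 fell from 34.1 ± 4.07 to 9.92 ± 2.43 CPM, log2 fold change -1.77 in ConOA against Con.

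Both thyroid hormone receptor genes were lower with either agent alone. Thrb, the main form in hepatocytes, stood at 28.1, 27.2 and 25.99 CPM in Con, 18.5, 18.5 and 17.4 CPM in ConOA, 19.2, 15.6 and 15.3 CPM in BBR and 15.4, 13.6 and 13.8 CPM in BBROA. The 4 groups followed the order Con, ConOA, BBR and BBROA by their means, and every Con library was above every other library. Thrb fell 1.598-fold with BBR (log2 fold change -0.68 with an SE of 0.0853, adjusted p = 1.96e-05), 1.49-fold with OA (log2 fold change -0.57 with an SE of 0.0696, adjusted p = 1.53e-05) and 1.27-fold with BBR in the presence of OA (log2 fold change -0.34 with an SE of 0.0824, adjusted p = 0.0306). The last call was lost without ConOA replicate 1 or 2 (adjusted p = 0.0715 and 0.106), without BBROA replicate 2 or 3 (adjusted p = 0.135 and 0.1303) and in DESeq2 (adjusted p = 0.0557).

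Thra stood at 7.78, 9.93 and 8.298 CPM in Con, 3.91, 4.06 and 5.82 CPM in ConOA, 6.58, 5.41 and 7.43 CPM in BBR and 5.31, 4.97 and 5.42 CPM in BBROA. The Con libraries were again the highest. The fall was 1.87-fold with OA (log2 fold change -0.90 with an SE of 0.157, adjusted p = 3.66e-04) and 1.32-fold with BBR (log2 fold change -0.40 with an SE of 0.134, adjusted p = 0.0336), the second lost without Con replicate 2 or 3 (adjusted p = 0.159 and 0.0569), without BBR replicate 1 or 2 (adjusted p = 0.0626 and 0.135) and in DESeq2 (adjusted p = 0.0607). Thra shares 263 exonic bases, 5.70% of its own, with Nr1d1 on the opposite strand, and Nr1d1 fell by 1.25 on the log2 scale with OA. Without knowing whether counting used the strand, reads of the 2 genes in this stretch cannot be told apart. Of 10 thyroid hormone targets tested, 2 rose and 5 fell in BBR against Con, 3 rose and 2 fell in ConOA against Con, and 6 rose and 2 fell in BBROA against BBR. In BBROA against ConOA edgeR and DESeq2 called 0, and 1 was lower at an unadjusted p-value under 0.05. The list includes G6pc, the glucose-releasing phosphatase (log2 fold change -1.03 with BBR and 0.90 in BBROA against BBR), and Hr, a corepressor (0.36 and -0.99).

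The LXRs sense oxysterols and promote cholesterol efflux and fatty acid synthesis. Nr1h3 (LXRα) stood at 46.02, 46.9 and 44.9 CPM in Con, 47.9, 46.5 and 50.6 CPM in ConOA, 44.5, 38.9 and 43.2 CPM in BBR and 53.3, 52.3 and 57.2 CPM in BBROA, highest in BBROA. Its rise in BBROA against BBR was 1.28-fold without overlap (log2 fold change 0.36 with an SE of 0.0605, adjusted p = 3.25e-04). BBR gave -0.11 without OA (adjusted p = 0.184) and 0.16 with it (adjusted p = 0.135). Nr1h2 (LXRβ) stood at 80.1, 85.02 and 84.9 CPM in Con, 70.7, 78.5 and 77.2 CPM in ConOA, 89.4, 89.9 and 90.9 CPM in BBR and 69.99, 75.7 and 80.7 CPM in BBROA, highest in BBR. It fell 1.196-fold in BBROA against BBR (log2 fold change -0.26 with an SE of 0.05198, adjusted p = 0.00126), so the 2 LXR genes were called in opposite directions there. Of 12 LXR targets, which include Nr1h3 itself, 3 rose and 1 fell in BBR against Con, 2 rose and 0 fell in BBROA against ConOA (0 also at an unadjusted p-value under 0.05 in edgeR and in DESeq2), 1 rose and 6 fell in ConOA against Con, and 2 rose and 5 fell in BBROA against BBR. Nr1h3 itself was 1 of the 2 rises in BBROA against BBR. The desaturase Scd1 fell from 3111 ± 178 to 1508 ± 74.4 CPM, log2 fold change -1.04 with OA. The phospholipid-remodelling enzyme Lpcat3 rose in all 4 comparisons (log2 fold changes from 0.19 to 0.51).

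Rora, a receptor that binds sterols and activates clock and lipid genes, rose with OA. It stood at 53.95, 54.9 and 54.00 CPM in Con, 69.1, 64.4 and 64.2 CPM in ConOA, 49.8, 47.8 and 58.3 CPM in BBR and 74.8, 75.1 and 78.1 CPM in BBROA. Every library with OA was above every library without it, and every BBROA library was above every ConOA library. The rise was 1.22-fold in ConOA against Con (log2 fold change 0.29 with an SE of 0.0525, adjusted p = 5.39e-04), 1.46-fold in BBROA against BBR (log2 fold change 0.55 with an SE of 0.0642, adjusted p = 1.20e-05) and 1.15-fold in BBROA against ConOA (log2 fold change 0.20 with an SE of 0.0518, adjusted p = 0.0389). The last call was lost in 5 of the 6 fits that left out 1 library: without ConOA replicate 2 or 3 (adjusted p = 0.137 and 0.0568) or BBROA replicate 1, 2 or 3 (adjusted p = 0.0794, 0.119 and 0.157). BBR alone gave -0.054 (adjusted p = 0.583). The genes that ROR activates and REV-ERB represses were counted over 10 or 11 tested members. With OA 5 rose and 1 fell against Con, and 6 rose and 2 fell in BBROA against BBR. The clock activators Npas2 (1.18 and 1.25) and Arntl (0.80 and 1.08) rose most and the REV-ERBα gene Nr1d1 fell most (-1.25 and -1.44). With BBR the list had 1 rise and 1 fall without OA, and with OA 1 rise and 0 falls (0 also at an unadjusted p-value under 0.05 in edgeR and in DESeq2).

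Of the steroid receptors, Esr1, the estrogen receptor, had the largest fall among members in ConOA against Con. It stood at 6.78, 4.63 and 4.46 CPM in Con, 2.21, 1.89 and 1.74 CPM in ConOA, 2.62, 2.45 and 2.48 CPM in BBR and 2.02, 1.902 and 2.38 CPM in BBROA. Con replicate 1 was the highest library, and all Con libraries were above all the others. The fall was 2.07-fold with BBR (log2 fold change -1.05 with an SE of 0.191, adjusted p = 5.97e-04) and 2.69-fold with OA (log2 fold change -1.43 with an SE of 0.206, adjusted p = 6.89e-05). Once 1 agent was present, no further fall with the other passed the threshold. The values were 0.11 in BBROA against ConOA (SE 0.217, adjusted p = 0.839) and -0.27 in BBROA against BBR (SE 0.197, adjusted p = 0.311). In the second, all BBROA libraries were below all BBR libraries. The uncalled Rxrb, Rxrg, Nr2c1, Nr2f2 and Nr4a2 were also without overlap there, in either direction. Counts of Esr1 were low, from 34 to 135 per library.

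Nr3c2, the mineralocorticoid receptor, stood at 8.08, 9.31 and 10.5 CPM in Con, 4.98, 3.63 and 2.91 CPM in ConOA, 7.83, 6.63 and 9.15 CPM in BBR and 5.11, 5.02 and 4.94 CPM in BBROA. Every library with OA was below every library without it. The fall was 2.43-fold in ConOA against Con (log2 fold change -1.28 with an SE of 0.169, adjusted p = 3.09e-05) and 1.57-fold in BBROA against BBR (log2 fold change -0.65 with an SE of 0.138, adjusted p = 0.00178). The glucocorticoid receptor Nr3c1, which mediates the response to cortisol-like hormones, fell less. It stood at 90.9, 89.6 and 92.7 CPM in Con, 80.2, 80.5 and 74.7 CPM in ConOA, 100.4, 95.2 and 92.9 CPM in BBR and 74.04, 81.3 and 78.7 CPM in BBROA, again with no overlap between libraries with and without OA (log2 fold change -0.21 with an SE of 0.0501, adjusted p = 0.00401 in ConOA against Con and log2 fold change -0.30 with an SE of 0.0495, adjusted p = 2.19e-04 in BBROA against BBR). Its 14 listed targets went the other way for the most part, with 12 higher and 1 lower in ConOA against Con (median 0.73) and 11 higher and 1 lower in BBROA against BBR (median 0.86). The largest rise was in the acute-phase gene Lcn2 (from 257 ± 19.7 to 1133 ± 119 CPM, log2 fold change 2.15) and the fall was in the tryptophan dioxygenase Tdo2 (from 35.2 ± 1.96 to 10.8 ± 1.36 CPM, log2 fold change -1.70), both against Con. With BBR 4 rose and 6 fell without OA, and 1 rose and 1 fell with it.

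**Figure D4:**
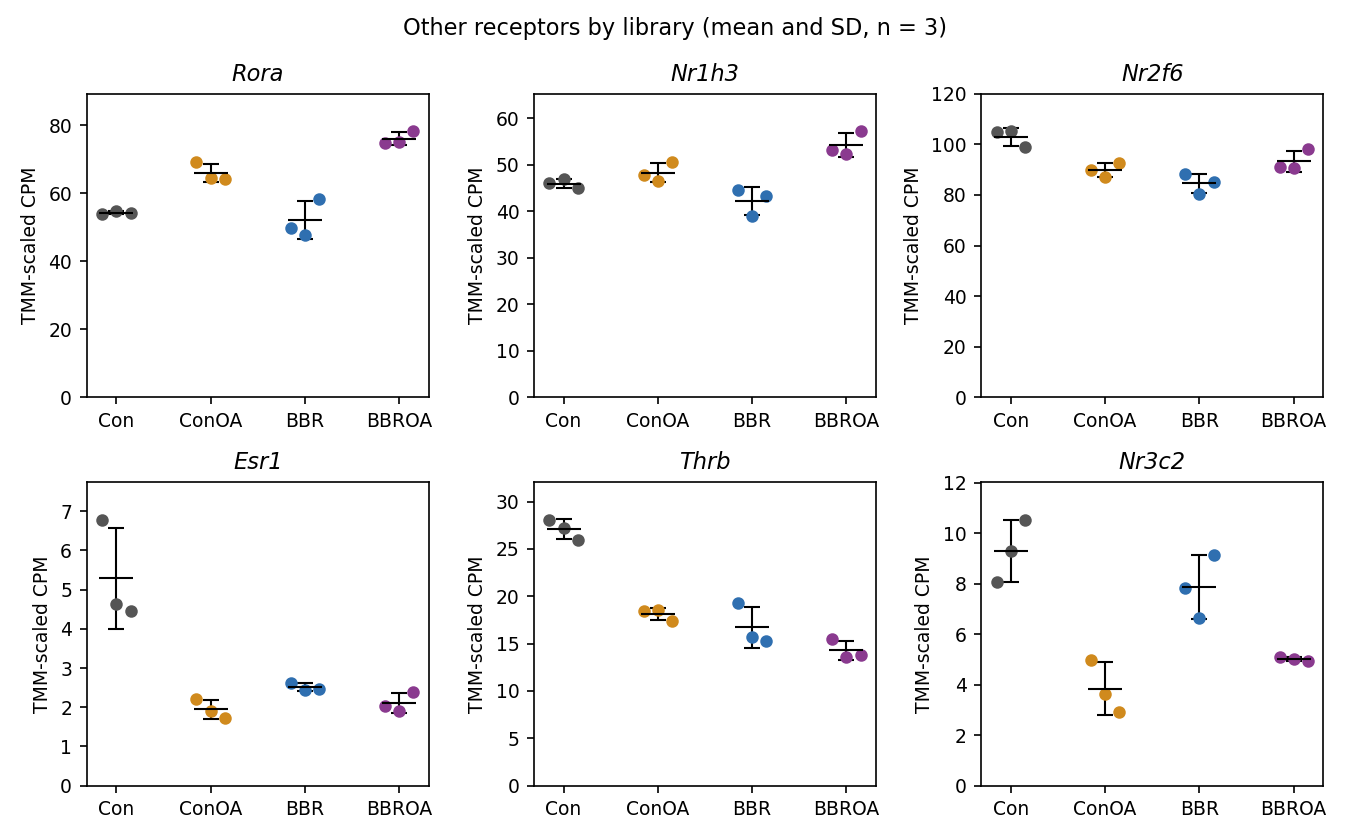
TMM-scaled CPM (y axis) of 6 other receptors in each library by group (x axis), with the mean and SD of 3 libraries as bars. All Con libraries of Esr1 lie above the other 9, whose highest value is 2.62 CPM, and Rora is higher in every library with OA.

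Esrra, the estrogen-related receptor ERRα, binds no estrogen and drives mitochondrial genes together with PGC-1 coactivators. It stood at 43.1, 39.4 and 45.4 CPM in Con, 48.5, 50.4 and 52.00 CPM in ConOA, 37.1, 36.4 and 36.6 CPM in BBR and 51.98, 43.02 and 49.8 CPM in BBROA. It fell 1.16-fold with BBR (log2 fold change -0.21 with an SE of 0.06205, adjusted p = 0.0185) and rose with OA, 1.19-fold against Con (log2 fold change 0.25 with an SE of 0.0631, adjusted p = 0.00593) and 1.31-fold in BBROA against BBR (log2 fold change 0.39 with an SE of 0.0672, adjusted p = 3.33e-04), in each case without overlap. The fall was lost without Con replicate 1 or 3 (adjusted p = 0.05300 and 0.0907) or BBR replicate 2 or 3 (adjusted p = 0.0541 and 0.0528). Of 12 ERR targets, which include Esrra, 4 rose and 1 fell in ConOA against Con, and 8 rose and 1 fell in BBROA against BBR, led by the citrate cycle gene Idh3a (from 34.02 ± 0.878 to 46.7 ± 0.0571 CPM, log2 fold change 0.45). In BBR against Con 2 rose and 1 fell, the fall being that of Esrra itself. Esrra was also among the rises in both comparisons with OA as the added agent. In BBROA against ConOA edgeR and DESeq2 called 0, with 2 higher and 0 lower at an unadjusted p-value under 0.05.

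Ppargc1b, which encodes PGC-1β, a coactivator of ERRα and PPARs, was close to the limit of detection, with 11 to 48 counts per library. It stood at 1.91, 1.81 and 2.02 CPM in Con, 2.38, 1.73 and 1.38 CPM in ConOA, 1.01, 0.708 and 1.18 CPM in BBR and 1.87, 1.53 and 1.49 CPM in BBROA. All BBR libraries were below all Con libraries, a fall of 1.94-fold (log2 fold change -0.95 with an SE of 0.258, adjusted p = 0.0111), which was lost without BBR replicate 2 (adjusted p = 0.0556). The rise in BBROA against BBR (log2 fold change 0.73 with an SE of 0.2702, adjusted p = 0.0444) did not hold in DESeq2 (adjusted p = 0.127), without the filter on low counts (adjusted p = 0.06305) or with upper quartile scaling (adjusted p = 0.05604), nor without BBR replicate 1 or 2 (adjusted p = 0.0883 and 0.159) or BBROA replicate 1, 2 or 3 (adjusted p = 0.151, 0.0759 and 0.0691).

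The corepressor Ncor1, which recruits histone deacetylase to receptors without ligand, stood at 184, 187 and 182 CPM in Con, 171, 163 and 141 CPM in ConOA, 184, 171 and 178 CPM in BBR and 173, 171 and 160.0 CPM in BBROA. It fell 1.16-fold with OA (log2 fold change -0.21 with an SE of 0.0623, adjusted p = 0.0127), and ConOA replicate 3 was the lowest library. The call was lost without Con replicate 2 (adjusted p = 0.0526). Of the p160 coactivators, Ncoa1 stood at 24.2 ± 1.400 CPM in Con and fell to 19.9 ± 0.325 CPM in ConOA (log2 fold change -0.28 with an SE of 0.0716, adjusted p = 0.00602), and Ncoa2 rose from 70.8 ± 3.502 in BBR to 81.3 ± 3.202 CPM in BBROA (log2 fold change 0.20 with an SE of 0.0507, adjusted p = 0.007204), both without overlap. Of 21 other coregulators, all tested, 7 rose and 2 fell in BBR against Con (background 13.2% and 14.5%). In BBROA against ConOA 0 rose and 2 fell (background 1.95% and 2.63%). In ConOA against Con 7 rose and 1 fell (background 21.3% and 21.5%), and in BBROA against BBR 5 rose and 3 fell (background 20.1% and 18.8%). For the 0, 1 was higher at an unadjusted p-value under 0.05 in edgeR, and DESeq2 called 0 in either direction. The related coactivator Ppargc1a fell with OA (from 2.68 ± 0.325 to 1.402 ± 0.116 CPM, log2 fold change -0.92 against Con).

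The orphan receptor Nr2f6, a repressor of the COUP-TF family, stood at 105, 105 and 98.9 CPM in Con, 89.9, 87.1 and 92.6 CPM in ConOA, 88.2, 80.5 and 85.1 CPM in BBR and 91.1, 90.6 and 98.2 CPM in BBROA. It fell with each agent alone (log2 fold change -0.27 with an SE of 0.0497, adjusted p = 5.85e-04 with BBR and log2 fold change -0.19 with an SE of 0.0503, adjusted p = 0.00743 with OA) and rose in BBROA against BBR (log2 fold change 0.14 with an SE of 0.0496, adjusted p = 0.0409). The rise was lost without BBR replicate 2 or 3 (adjusted p = 0.151 and 0.0834), without BBROA replicate 2 or 3 (adjusted p = 0.05096 and 0.167), with upper quartile scaling (adjusted p = 0.147) and in DESeq2 (adjusted p = 0.0852). Its exons share 1622 bases, 54.4% of their length, with Ocel1 on the opposite strand, and its counts were fractional in all 12 libraries, so its values may include reads of Ocel1. Ocel1 was not called in any of the 4 comparisons (log2 fold changes from -0.094 to 0.13).

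Nr2c2, the testicular receptor TR4, stood at 27.6, 29.6 and 23.8 CPM in Con, 23.04, 24.03 and 20.3 CPM in ConOA, 27.7, 26.4 and 31.3 CPM in BBR and 20.7, 24.2 and 24.2 CPM in BBROA. It fell with OA, against Con (log2 fold change -0.26 with an SE of 0.0885, adjusted p = 0.0297) with overlapping groups and in BBROA against BBR (log2 fold change -0.31 with an SE of 0.0813, adjusted p = 0.00758) without overlap. The first call was lost without Con replicate 1 or 2 (adjusted p = 0.0803 and 0.149) or ConOA replicate 3 (adjusted p = 0.104). It shares 4590 exonic bases, 30.7% of its own, with Mrps25 on the opposite strand, and carried fractional counts in all 12 libraries. Nr2c1 (TR2), Nr2f2 (COUP-TFII) and Nr6a1 (germ cell nuclear factor) were never called, with group means within 1.18-fold, 1.34-fold and 1.13-fold of each other.

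The NR4A receptors bind no known lipid hormone and are induced within minutes of a stimulus. Nr4a1 stood at 4.82, 4.54 and 3.88 CPM in Con, 5.09, 6.01 and 5.62 CPM in ConOA, 5.201, 4.57 and 4.52 CPM in BBR and 5.11, 5.28 and 3.81 CPM in BBROA. The ConOA libraries were all above the Con libraries, a difference that did not pass the threshold (log2 fold change 0.35 with an SE of 0.141, adjusted p = 0.0569). Nr4a2 was near 1 CPM, with group means from 0.927 ± 0.0747 in Con to 1.28 ± 0.0789 CPM in BBROA, and was not called either. Of 19 immediate early genes tested, 12 rose and 2 fell in ConOA against Con, 10 rose and 2 fell in BBROA against BBR, 7 rose and 1 fell in BBR against Con, and 1 rose and 0 fell in BBROA against ConOA (4 lower at an unadjusted p-value under 0.05 in edgeR, 0 lower in DESeq2). With OA, the growth-response gene Egr2 rose from 1.15 ± 0.127 to 2.68 ± 0.635 CPM, log2 fold change 1.22, and Klf2 fell from 3.15 ± 0.397 to 1.67 ± 0.453 CPM, log2 fold change -0.89.

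A further 5 members had too few counts to pass the filter and were not tested with the rest. The vitamin D receptor Vdr had 0 to 4 counts per library, COUP-TFI (Nr2f1) 0 to 4, ERRγ (Esrrg) 0 to 3, Nr4a3 0 to 7 and HNF4γ (Hnf4g) 0 to 8. In a library at 0, a count of 0 allows up to 3 counts, between 0.127 and 0.194 CPM, for counting error only. Hnf4g had 7, 6 and 6 counts in Con (0.297 ± 0.0501 CPM) and 1 in each ConOA library (0.0539 ± 0.00277 CPM), without overlap. With the filter on low counts left out, Hnf4g passed the threshold in ConOA against Con, lower (edgeR, adjusted p = 0.0377). The other 24 such values of these 5 members did not (adjusted p from 0.0962 to 0.9999). The lowest of them was that of Vdr in BBROA against BBR, with 4, 1 and 1 counts against 0 in each BBR library. Of 6 vitamin D target genes, 0 passed the filter on low counts.

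The effect of BBR was then compared between cells without and with OA, by the interaction of the treatments over all 12 libraries. Of 28 members, 5 had a positive interaction, meaning a log2 fold change with BBR that was higher in the presence of OA (background 6.87%), and 0 a negative one (background 5.31%). At an unadjusted p-value under 0.05 in edgeR 10 were positive and 2 negative, and DESeq2 called 3 positive and 0 negative. The shares above belong to adjusted p-values in edgeR and cannot be set against these counts. Esr1 had the largest term (log2 fold change 1.17 with an SE of 0.288, adjusted p = 0.0114), since BBR gave -1.05 without OA and 0.11 with it. Nr2f6 was next among the 5 called (log2 fold change 0.34 with an SE of 0.0698, adjusted p = 0.00372), with -0.27 and 0.05. Larger terms of Rxrg, Ppargc1b, Nr3c2, Thra and Thrb (log2 fold changes from 0.35 to 0.93) did not pass the threshold in this fit.

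Rxra had a term of the same sign (log2 fold change 0.29 with an SE of 0.0847, adjusted p = 0.0335), with -0.30 without OA and -0.028 with it. For Nr1h3 (log2 fold change 0.28 with an SE of 0.0821, adjusted p = 0.0293) and Rora (log2 fold change 0.27 with an SE of 0.0858, adjusted p = 0.0481) the values of BBR were negative without OA and positive with it. The terms of Esr1 and Nr2f6 stayed past the threshold in all 12 fits that left out 1 library. That of Rxra was lost in 8 of the 12, without Con replicate 1, 2 or 3, ConOA replicate 2 or 3, BBR replicate 2, or BBROA replicate 1 or 3 (adjusted p from 0.0541 to 0.132). That of Nr1h3 was lost in 7, without Con replicate 1 or 2, ConOA replicate 1 or 2, BBR replicate 2, or BBROA replicate 1 or 3 (adjusted p from 0.0521 to 0.117), and in DESeq2 (adjusted p = 0.0535). That of Rora was lost in 10, all but those without ConOA replicate 1 or BBR replicate 3 (adjusted p from 0.0749 to 0.151), with RLE or upper quartile scaling (adjusted p = 0.0645 and 0.0558) and in DESeq2 (adjusted p = 0.0748). The Pparg, Ppara and Ppard terms did not pass the threshold, at -0.31, -0.18 and 0.055 (adjusted p = 0.183, 0.629 and 0.815).

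**Figure D5:**
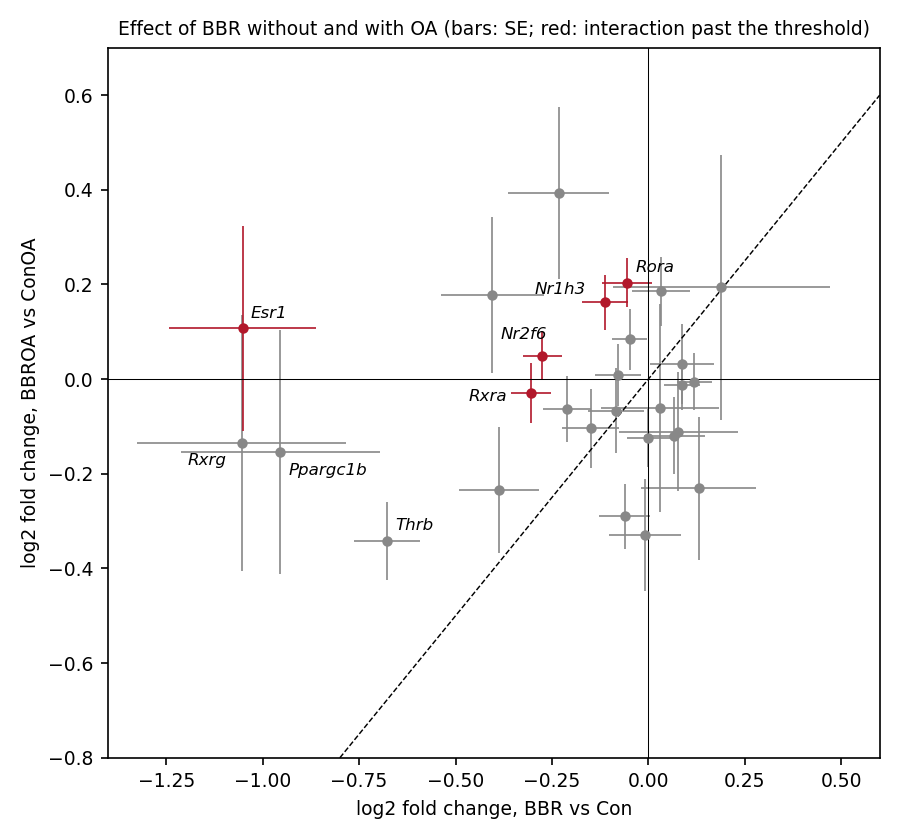
Log2 fold change of each tested member with BBR in the absence of OA (x axis) against that in its presence (y axis), with standard errors and the line of equal values dashed. The 5 members with an interaction past the threshold are red and lie above the line.

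The 19 receptors outside the set were counted in the same fits. In BBR against Con 11 could be tested, and 0 rose (background 13.2%) and 7 fell (background 14.5%), with a median of -0.46. At an unadjusted p-value under 0.05 edgeR gave 0 higher, as did DESeq2 after adjustment. The largest falls were in Nr0b2, the repressor SHP (from 1.98 ± 0.143 to 0.452 ± 0.162 CPM, log2 fold change -2.12), and in Nr1h4, the bile acid receptor FXR (from 15.5 ± 0.227 to 7.99 ± 0.707 CPM, log2 fold change -0.94). In ConOA against Con 0 of 11 rose and 8 fell (0 higher also at an unadjusted p-value and in DESeq2), led by Nr1d1 (from 11.8 ± 0.501 to 4.93 ± 0.462 CPM, log2 fold change -1.25). The background there was 21.3% higher and 21.5% lower. In BBROA against ConOA 0 of 10 rose and 1 fell (background 1.95% and 2.63%). In BBROA against BBR 2 rose and 3 fell (background 20.1% and 18.8%).

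Markers of cell types moved with the treatments too. In BBR against Con, 5 of 9 hepatocyte markers were lower and 1 was higher, and the Kupffer cell and macrophage markers summed to 141 to 183 CPM in BBR against 101 to 120 CPM in Con, with Cd68 called higher and Cd5l lower. Of 10 endothelial markers 3 were higher. Of the 6 cholangiocyte markers tested, 4 were higher and 2 lower. In ConOA against Con, 6 hepatocyte markers were higher and 1 lower, the summed level being 41735 to 42949 against 36349 to 37796 CPM, and 3 Kupffer cell and macrophage markers were higher and 6 lower. Of 9 endothelial markers tested there 1 was higher, of 4 stellate cell and fibroblast markers 1 was higher and 1 lower, and of 6 cholangiocyte markers 2 were higher and 1 lower. In BBROA against BBR, 6 hepatocyte markers were higher and 1 lower, the summed level being 42997 to 44945 against 36642 to 38358 CPM. There 3 Kupffer cell and macrophage markers were higher and 3 lower, 3 endothelial markers were higher and 3 lower, and 3 of 6 cholangiocyte markers were lower. In BBROA against ConOA, 1 hepatocyte marker was lower and edgeR called 0 of the other markers, with 3 higher and 2 lower at an unadjusted p-value under 0.05, and DESeq2 called 1 cholangiocyte marker lower. The part of cell composition in the changes of the receptors was not tested.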

How the data were processed

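RNA sequencing libraries were grouped by their titles. For each library the authors deposited one table with estimated counts and FPKM values per gene. The submitters' processing notes name build mm10, and the aligner, the counting program and its strand setting are not given in the sources used here. Estimated counts were rounded to whole numbers, since 2862 features had fractions. Genes were kept by filterByExpr (minimum count 10), scaled by TMM and tested in edgeR 4.0.16 (R 4.3.3) with quasi-likelihood F tests, two-sided, on the 6 libraries of each pair of groups, or on all 12 for the interaction, with Benjamini-Hochberg adjustment over all genes. Each SE of a log2 fold change is its absolute value divided by the square root of the F statistic. Group values in CPM are TMM-scaled means with the SD, and FPKM served for levels between genes. Alternatives were RLE and upper quartile scaling, DESeq2 1.42.0, no filter, a replicate block, all 12 libraries in one fit, unadjusted p-values, and leaving out each library. Fits were tested on simulated counts. Coordinates came from GENCODE M21 and matched 99.7% of Ensembl identifiers. The members, the gene lists and the tests were chosen with earlier results of these data known. Every called member, all PPAR and RXR genes, and every untested member were named, with at most 4 genes of another list per comparison (the 2 largest rises and falls). Cldn4, Krt7, Cftr, Cd68, Cd5l, Rarb, Lpcat3, Hr, Cyp26a1, Ocel1 and Mrps25 were named outside that rule, some after their values were seen.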

Additional observations from a re-analysis of the deposited data

Results flagged for a closer look

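In all, 5 members responded to BBR differently without and with OA by the test of the difference itself, the interaction in edgeR over all 12 libraries, all of them with a positive term (background 6.87% of all genes tested). The interaction term on the log2 scale was 1.17 for Esr1 (adjusted p = 0.0114), 0.34 for Nr2f6 (adjusted p = 0.00372), 0.29 for Rxra (adjusted p = 0.0335), 0.28 for Nr1h3 (adjusted p = 0.0293) and 0.27 for Rora (adjusted p = 0.0481). Leaving out 1 library at a time lost the term of Rxra in 8 of 12 fits, that of Nr1h3 in 7 and that of Rora in 10, and those of Esr1 and Nr2f6 in 0. In Esr1 the mean was 5.29 ± 1.29 CPM in Con and 2.52 ± 0.0948 CPM in BBR, against 1.95 ± 0.2396 CPM in ConOA and 2.103 ± 0.2499 CPM in BBROA (SD, n = 3).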

How the results depend on the processing

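The counts of called members depended on single libraries. Leaving out 1 library at a time gave 5 to 8 members lower in BBR against Con (5 without BBR replicate 2), 0 to 1 higher and 0 to 1 lower in BBROA against ConOA (1 higher without ConOA replicate 1 and 0 otherwise, 0 lower without ConOA replicate 1 or BBROA replicate 2 or 3), 4 to 6 higher in BBROA against BBR (4 without BBR replicate 2 or BBROA replicate 3), and 2 to 5 with a positive interaction (2 without Con replicate 1 or 2, ConOA replicate 2, BBR replicate 2, or BBROA replicate 1 or 3). DESeq2 called 1 lower in BBROA against ConOA, 4 higher in BBROA against BBR and 3 with a positive interaction, and upper quartile scaling 4 higher in BBROA against BBR. At an unadjusted p-value under 0.05, 1 member was higher in BBR against Con, 4 in BBROA against ConOA and 5 in ConOA against Con, and 10 had a positive and 2 a negative interaction. No share of all genes called stands beside the counts at these settings, so they do not set the members apart from other genes. The causes were not tested.

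Same-numbered libraries deviated together, with correlations from 0.011 to 0.18 (8 of 18 over 0.1) against -0.15 to 0.068 for other pairs. All 12 libraries correlated best on average with their own number. The main fits did not take the numbers as pairs and so leave out this shared part, whose source the labels do not give. With a replicate block, 1 member was higher in BBR against Con, 2 in BBROA against ConOA and 5 in ConOA against Con, and 8 had a positive interaction. In all 10 calls were gained and 0 lost. Those in ConOA against Con were Ppard lower (log2 fold change -0.16, adjusted p = 0.0497), Nr1h2 lower (adjusted p = 0.00594), and Nr4a1 and Ncoa2 higher. Nr1h2 was gained as higher in BBR against Con, Nr1h3 as higher in BBROA against ConOA and Thrb as lower in BBROA against BBR. Thrb, Thra and Nr3c2 gained a positive interaction. The share of all genes called with the block is not given here, so the gains cannot be taken as particular to the members.

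Of 46 member values past the threshold, 16 lost it in at least 1 alternative and none of the 46 changed sign. The values that changed sign were not past the threshold with all libraries. With 1 library left out, Ppara ran from -0.10 to 0.16, Pparg from -0.075 to 0.061 and Rxrb from -0.017 to 0.028 in BBR against Con, Rxra from -0.067 to 0.034 in BBROA against ConOA, Rxrb from -0.014 to 0.060 in ConOA against Con, and the interaction of Ppara from -0.31 to 0.0065 and of Ppard from -0.026 to 0.11. Rxrb was -0.0071 in BBR against Con with all 12 libraries in one fit and -0.019 in ConOA against Con with upper quartile scaling. Of 1430 alternative counts over the other gene lists, 154 moved by more than 1.5 times. Depth limits Rxrg, Ppargc1b, Esr1 and the 5 untested members.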
